A study of Mus musculus with 8 samples.

Results

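The circadian clock genes described here are 10 genes of the molecular clock, chosen by name from the 20681 rows of a table of mouse knee joint RNA: Clock, Npas2, Per1, Per2, Per3, Cry1, Cry2, Nr1d1, Nr1d2 and Dbp. All 10 were found, each in 1 row, and all 10 were abundant enough to be tested. RNA of whole knee joints was captured on poly-T beads and sequenced in 8 libraries: 4 carry the label control and 4 the label knockout. By the series' description, all the mice were Acan-Cre;Loxl2 fl/fl, so they carried Cre under the aggrecan gene, which acts in cartilage cells, and floxed alleles of Loxl2, a collagen-crosslinking enzyme. The control libraries are described as vehicle-treated and named Vehicle_DMM_LOXL2wt, and the others KO_DMM_LOXL2ko. DMM, not spelled out there, is the common short form of destabilisation of the medial meniscus, a surgical joint injury that both groups would then share. What the knockout group received in place of vehicle, the age of the mice and the hour at which joints were collected are not stated in the sources used here.

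The clock is a loop of transcription and repression that most cells run with a period of about a day. CLOCK, or its relative NPAS2, pairs with BMAL1 (the product of Arntl) and switches on the Per and Cry genes through E-box elements, and the PER and CRY proteins then hold that pair back. In another loop the receptors REV-ERBα (Nr1d1) and REV-ERBβ (Nr1d2) repress, and the ROR receptors activate, Arntl, Clock, Npas2, Cry1 and Nfil3. DBP, with its relatives TEF and HLF, carries the rhythm to output genes through D-box elements, where NFIL3 opposes it. Transcripts of the positive arm therefore peak in most tissues at about the time when those of Dbp, Nr1d1 and Per3 are low. A shift in the time of collection can move these sets in opposite directions. Cartilage, bone, tendon and skeletal muscle all have running clocks.

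RefSeq promoter windows (build GRCm38.p6), from 250 bases before to 50 bases after a transcript start, were available for 9 members, all but Per2. They are shown because the loop acts through short elements that often lie near the start. The windows were searched on both strands for the E-box CACGTG, its variant CACGTT, the D-box as TTATGTAA or TTACGTAA, and the ROR and REV-ERB element as TAGGTCA or TGGGTCA. No motif overlapped another. Of the 12 member windows 5 held a match, in Per1, Per3, Cry1, Cry2 and Nr1d1. Among all 32851 windows, 7.15% held CACGTG, 4.68% CACGTT, 0.938% TTATGTAA, 0.119% TTACGTAA, 2.61% TAGGTCA and 3.98% TGGGTCA. These shares are for single motifs. The share of all windows with any of them was not counted, so 5 of 12 cannot be set against them. A pair of windows is shown because Npas2 and Cry2 are the members whose transcripts differed between the groups, and another pair because Cry1 and Per3 hold the fullest sets of these elements among the members. They run 5′ to 3′ on the gene's strand, with matches in capitals. The positions are chr1:39194022-39194321 (plus) for Npas2, chr2:92434020-92434319 (minus) for Cry2, chr10:85185005-85185304 (minus) for Cry1 and chr4:151044616-151044915 (minus) for Per3.
Npas2: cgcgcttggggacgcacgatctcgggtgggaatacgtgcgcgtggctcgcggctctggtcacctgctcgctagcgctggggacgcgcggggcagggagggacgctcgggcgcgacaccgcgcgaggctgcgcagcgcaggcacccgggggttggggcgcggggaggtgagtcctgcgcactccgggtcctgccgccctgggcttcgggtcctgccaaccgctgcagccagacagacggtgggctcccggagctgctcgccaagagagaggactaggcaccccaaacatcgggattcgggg
Cry2: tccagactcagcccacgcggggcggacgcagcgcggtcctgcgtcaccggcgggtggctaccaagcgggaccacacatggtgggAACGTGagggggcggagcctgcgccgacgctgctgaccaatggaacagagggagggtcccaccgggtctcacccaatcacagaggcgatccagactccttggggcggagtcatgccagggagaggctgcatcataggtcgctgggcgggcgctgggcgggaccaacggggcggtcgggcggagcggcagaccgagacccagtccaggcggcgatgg
Cry1: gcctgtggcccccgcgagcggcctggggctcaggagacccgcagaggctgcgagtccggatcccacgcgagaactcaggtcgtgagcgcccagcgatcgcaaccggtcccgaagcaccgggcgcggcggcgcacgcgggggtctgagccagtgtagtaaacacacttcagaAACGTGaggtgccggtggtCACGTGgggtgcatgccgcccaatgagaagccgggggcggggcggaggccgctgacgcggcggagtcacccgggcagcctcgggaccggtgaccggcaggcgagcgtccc
Per3: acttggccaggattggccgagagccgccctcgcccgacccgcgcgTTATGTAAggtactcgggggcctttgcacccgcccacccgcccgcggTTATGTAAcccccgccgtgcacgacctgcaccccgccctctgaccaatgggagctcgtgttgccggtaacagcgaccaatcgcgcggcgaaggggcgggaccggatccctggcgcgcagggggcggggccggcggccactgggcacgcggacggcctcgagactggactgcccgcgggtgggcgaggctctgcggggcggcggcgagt
The Npas2 window held none of these letters. That of Cry2 held 1 CACGTT on the opposite strand, 166 bases before the start (printed as AACGTG). In Cry1 a CACGTG stood 60 bases and a CACGTT 79 bases before the start, and in Per3 a TTATGTAA stood at 205 and again at 158 bases before it. The window of Per1 held a CACGTG 166 bases before its first start. These matches are descriptions of the windows and were not tied to the measurements.

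The libraries held 13991000 to 17411617 reads assigned to genes, and values below are normalised read counts, that is, reads divided by the library's size factor. The targeted gene was not lower in the libraries labelled knockout. Loxl2 was at 282, 349, 1135 and 311 across control replicates 1 to 4, and knockout replicates 1 to 4 had 893, 1468, 960 and 1518. The log2 difference was 1.44 (limma adjusted p = 0.0294). Cre under the aggrecan gene acts in cartilage cells, and in whole joints the Loxl2 of other cells is counted too. Groups are therefore named by their labels only. In Loxl2, control replicate 3 lay inside the range of the libraries labelled knockout, so the groups overlapped. The log2 difference of Npas2 is also given without that replicate. Nothing in the labels says that the libraries came from separate mice, so p-values measure the spread between these libraries. Marker sums differed between the groups without overlap for 4 tissues. The 12 skeletal muscle markers together took 13.4% to 13.7% of a control library and 7.95% to 10.5% of a library labelled knockout, and the 8 fibroblast markers took 0.231% to 0.744% and 1.13% to 1.99%. The 8 cartilage markers took 0.0192% to 0.0507% and 0.0606% to 0.10%, and the 7 macrophage markers took 0.00783% to 0.0188% and 0.0354% to 0.0499%. No marker on these 4 lists was at 0 in all libraries. The sums of bone and osteoclast, red cell, neutrophil, fat and endothelial markers overlapped between the groups.

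Of the 10 clock genes, Npas2 was higher and Cry2 lower in the libraries labelled knockout, and the other 8 did not pass the test. Genes were called at an adjusted p under 0.05 in a limma fit across 14949 genes, of which 23.2% were called, 11.6% higher and 11.6% lower. A count of 1 higher and 1 lower among 10 members is near that background, and is no result about the set. The same 2 had an unadjusted limma p under 0.05, beside 38.4% of all genes. The median log2 difference was 0.04 over the members and 0.00 over all genes tested. The plot of counts by library shows Npas2 and Cry2 as the 2 members whose groups did not overlap, against 11.7% of all genes that were higher and 13.4% that were lower without overlap (25.1% together).

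**Figure D1:**
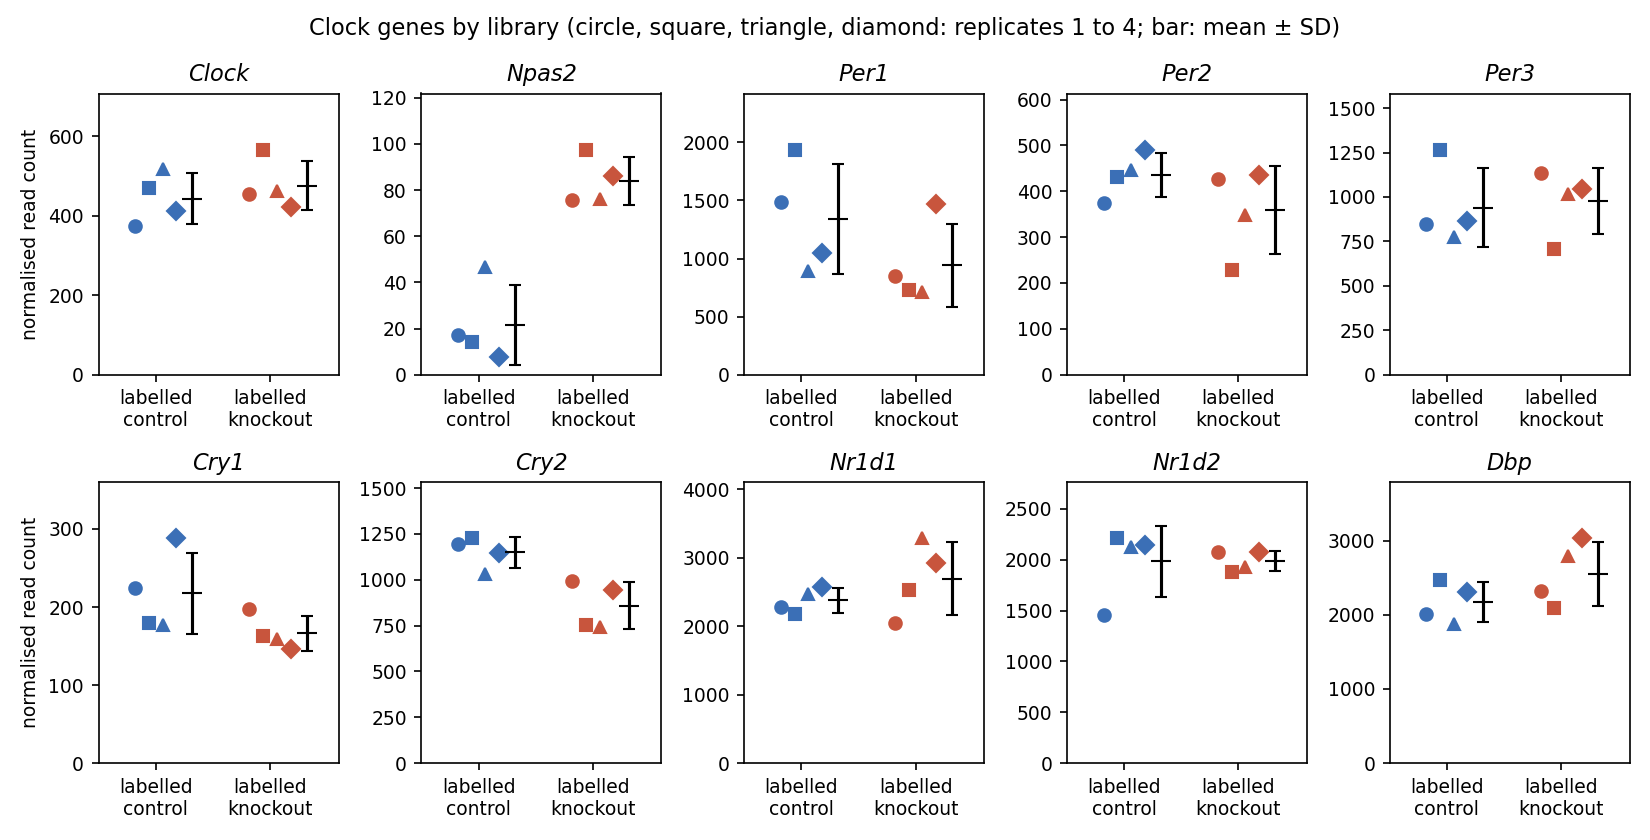
Normalised read count of each clock gene (y axis, from 0, scaled to each gene) in the 4 libraries labelled control (blue) and the 4 labelled knockout (red), with symbols for replicate numbers and a black bar for the mean ± SD. Npas2 lay at 7.67 to 46.7 against 75.8 to 97.5, Cry2 at 1029 to 1226 against 745 to 991, and the groups overlapped for the other 8.

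In the positive arm, Npas2 (chromosome 1, 39193731 to 39363236, plus strand), which encodes the CLOCK relative that can replace it as partner of BMAL1, had 17.3, 14.1, 46.7 and 7.67 normalised reads across control replicates 1 to 4. Across knockout replicates 1 to 4 it had 75.8, 97.5, 76.1 and 86.3. Every library labelled knockout stood above every control library, and control replicate 3 stood above the other control libraries. These rest on 7 to 50 reads in a control library and 70 to 114 in the others. The mean rose from 21.5 ± 17.3 to 83.9 ± 10.3 (SD, n = 4 each), which on the log2(count + 1) scale is 2.20 (SE 0.44, 95% interval 1.21 to 3.19, limma adjusted p = 0.010). The exact two-sided permutation test over the 70 assignments of libraries gave p = 0.0286, the smallest it can give. Without control replicate 3 the difference was 2.66 (limma adjusted p = 0.00222), and it stayed called without any other single library. In a fit with the muscle marker score as a covariate it was 1.55 and not called (limma adjusted p = 1.0), and there no gene was called; the groups account for 88.8% of the score's variance. Only 99 of the 14949 genes had a log2 difference at or above that of Npas2, 0.662% of those tested. In a whole joint, more cells of a type and more RNA per cell cannot be told apart.

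The groups that differed in Npas2 also differed in the marker sums of fibroblasts, which were 120174, 45565, 117349 and 38788 across control replicates 1 to 4 and 277266, 240938, 172604 and 262618 in the libraries labelled knockout. Within the groups the order of the sums was not that of Npas2. Control replicate 1 had the highest control sum with 17.3 reads of Npas2, and knockout replicates 1 and 3 had the highest and lowest sums with 75.8 and 76.1. The control order of the sums rested on Col1a1 and Col1a2, at 58034 and 47992 in control replicate 1. Col3a1, Col5a1, Dcn, Lum, Pdgfra and Postn were each highest among the control libraries in replicate 3, as was Npas2 (46.7). In the libraries labelled knockout none of these markers was highest in replicate 2, where Npas2 was (97.5). There Col3a1, Col5a1, Dcn and Pdgfra were highest in replicate 4, and Lum and Postn in replicate 1. All 8 fibroblast markers and all 7 macrophage markers were called higher, and 5 of the 12 muscle markers were called lower. Of the bone and osteoclast markers 5 of 6, and of the cartilage markers 2 of 8, were called higher, by limma at an adjusted p under 0.05. No red cell (6 genes), neutrophil (7), fat (5) or endothelial (4) marker was called, though 6 red cell and 1 neutrophil marker had an unadjusted limma p under 0.05, all lower. The part of tissue makeup in the level of Npas2 was not tested. The fit with the muscle score cannot separate makeup from group, since the groups account for 88.8% of that score's variance.

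Clock itself (chromosome 5, 76209868 to 76304792, minus strand), the histone acetyltransferase and DNA-binding partner of BMAL1, was at 374, 469, 518 and 411 in the control libraries and at 455, 566, 461 and 423 in those labelled knockout. The groups overlapped, and the log2 difference of 0.11 (95% interval -0.18 to 0.40) was not called (limma adjusted p = 0.583). The balance of the 2 partners therefore differed between the groups. Per kilobase of annotated exon, Npas2 made up 11.7%, 7.94%, 20.5% and 5.08% of the summed level of Clock and Npas2 across control replicates 1 to 4. Its share across knockout replicates 1 to 4 was 32.3%, 33.0%, 32.1% and 36.9%, or 11.3 ± 6.72% against 33.6 ± 2.24% (SD, n = 4). This ratio within a library does not depend on how libraries are scaled.

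The partner they need, Arntl, is not among the 10 but was read from the same fit. It was at 177, 145, 175 and 137 in the control libraries and at 97.7, 223, 163 and 90.7 in those labelled knockout. The 4 libraries labelled knockout enclosed the control range, from 90.7 in replicate 4 to 223 in replicate 2. The log2 difference was -0.23 (95% interval -0.84 to 0.37, limma adjusted p = 0.565). Arntl2, a close relative of Arntl, rose from 60.6 ± 5.41 to 92.8 ± 17.5, or 0.59 on the log2 scale (SE 0.19, limma adjusted p = 0.0466). Dropping a library cost that call in 7 of 8 cases (all but knockout replicate 2), with values from 0.52 to 0.73. It was also lost under quantile normalisation, at 0.35 (limma adjusted p = 0.223), and with no filter on low values (limma adjusted p = 0.0636).

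Among the repressors, Cry2 (chromosome 2, 92403646 to 92434043, minus strand), a cryptochrome that with the PER proteins blocks CLOCK and BMAL1, was at 1193, 1226, 1029 and 1148 across control replicates 1 to 4. Knockout replicates 1 to 4 had 991, 751, 745 and 944, each below every control library. The mean fell from 1149 ± 86.2 to 858 ± 128 (SD, n = 4), or -0.43 on the log2 scale (SE 0.11, 95% interval -0.69 to -0.17, limma adjusted p = 0.0254; exact permutation p = 0.0286). The call did not survive every setting. It was lost without control replicate 1 (limma adjusted p = 0.0552), control replicate 2 (0.0724), control replicate 4 (0.0578) or knockout replicate 2 (0.0655). It was also lost, at -0.28, when libraries were scaled without the muscle, red cell and neutrophil genes and the 50 highest genes (limma adjusted p = 0.109), a scaling that moved the median of all genes to 0.15. An exon of D930015M05Rik on the opposite strand shares 295 bases with Cry2, and the use of strand in counting is not stated.

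Cry1 (chromosome 10, 85131700 to 85185064, minus strand), the other cryptochrome, was at 225, 180, 178 and 288 in the control libraries and at 197, 162, 159 and 146 in those labelled knockout. The log2 difference of -0.37 was in the direction of Cry2 but its interval, -0.76 to 0.02, held 0 and it was not called (limma adjusted p = 0.154).

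The period genes were not called, and their intervals set how large a difference could have gone unseen. Per1 (chromosome 11, 69095217 to 69109960, plus strand), which also responds quickly to glucocorticoids and to cAMP signalling, ranged widely inside both groups. It was at 1487, 1937, 889 and 1050 in the control libraries and at 853, 731, 716 and 1466 in those labelled knockout. The log2 difference was -0.51 (95% interval -1.13 to 0.11, limma adjusted p = 0.208). Per2 (chromosome 1, 91415982 to 91459324, minus strand), a period gene whose loss shortens the rhythm, was at 374, 432, 446 and 491 against 427, 229, 348 and 437. Its difference was -0.31 (95% interval -0.75 to 0.12, limma adjusted p = 0.268), with knockout replicate 2 the lowest library. Per3 (chromosome 4, 151003652 to 151044665, minus strand) was at 850, 1266, 774 and 864 against 1134, 709, 1017 and 1043, a difference of 0.06 (95% interval -0.34 to 0.46, limma adjusted p = 0.833).

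Genes of other inputs that Per1 responds to were read from 2 lists. Of 7 glucocorticoid response genes 6 were tested: Sgk1 (-0.36) and Klf9 (-0.37) were called lower and Mt1 (1.20) higher, while Fkbp5 (-0.34), Tsc22d3 (-0.40) and Zbtb16 (-0.98) were not called. Of 6 immediate early genes Egr1 (log2 difference 1.08), Junb (1.17) and Ier2 (0.69) were called higher, and Fos (0.45), Fosb (0.99) and Nr4a1 (-0.48) were not called. These calls are those of the limma fit at an adjusted p under 0.05. In each list 5 of the 6 tested genes had an unadjusted limma p under 0.05, beside 38.4% of all genes. The median was -0.36 for the glucocorticoid list, with 5 of 6 differences below 0, and 0.84 for the immediate early list, with 5 of 6 above 0. Their part in the level of Per1 was not tested.

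In the second loop, Nr1d1 (chromosome 11, 98767932 to 98775333, minus strand), a repressor that binds haem, was at 2288, 2172, 2478 and 2574 in the control libraries and at 2047, 2523, 3286 and 2919 in those labelled knockout. Its log2 difference was 0.16 (95% interval -0.15 to 0.47, limma adjusted p = 0.421). It shares 263 exon bases with Thra on the opposite strand, and Thra itself stood at 1444 ± 76.5 and 1357 ± 81.3. Nr1d2 (chromosome 14, 18204054 to 18239127, minus strand) was at 1457, 2211, 2124 and 2139 against 2071, 1880, 1924 and 2075. Apart from the low control replicate 1 its libraries lay close together, and the log2 difference was 0.02 (95% interval -0.27 to 0.31, limma adjusted p = 0.920). Without control replicate 1 it was -0.12 (limma adjusted p = 0.323).

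Dbp (chromosome 7, 45705088 to 45710203, plus strand), the output factor whose transcript has one of the widest daily swings in most tissues, was at 2004, 2467, 1881 and 2311 in the control libraries. It was at 2319, 2084, 2785 and 3031 in the libraries labelled knockout. The highest libraries, knockout replicates 3 and 4, stood above all control libraries, while knockout replicate 2 lay inside the control range. The log2 difference of 0.23 was not called (95% interval -0.07 to 0.53, limma adjusted p = 0.235, exact permutation p = 0.171). Dbp shares 539 exon bases with Sphk2 on the opposite strand, which stood at 301 ± 26.1 and 303 ± 24.5.

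Levels compared between genes, per kilobase of annotated exon, gave the same order of the 10 in each group. Nr1d1 (773 ± 59.0 reads per kilobase in the control group) and Dbp (724 ± 90.3) came first, followed by Nr1d2 (367 ± 65.2), Per1 (238 ± 83.6), Cry2 (182 ± 13.6), Per3 (97.7 ± 23.1), Per2 (74.4 ± 8.20), Cry1 (65.1 ± 15.5), Clock (32.3 ± 4.62) and Npas2 (4.48 ± 3.62). In the libraries labelled knockout the ends were 876 ± 173 for Nr1d1 and 17.5 ± 2.14 for Npas2. Neighbours whose libraries overlapped in the control group were Nr1d1 and Dbp, Nr1d2 and Per1, Per1 and Cry2, Per3 and Per2, and Per2 and Cry1. In both groups the libraries did not overlap between Dbp and Nr1d2, Cry1 and Clock, or Clock and Npas2. The step from Cry1 to Clock was narrow in the libraries labelled knockout (lowest Cry1 43.7, highest Clock 41.2).

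The positive and negative arms were then set against each other, since a different hour of collection can move them apart. It need not do so, as the negative side holds Cry1, which the REV-ERB and ROR receptors control as they do Clock and Npas2. The arm difference of a library is the mean log2(count + 1) of Clock and Npas2 minus that of the other 8 members. It was -3.57, -3.75, -2.56 and -4.18 across control replicates 1 to 4, and -2.38, -1.73, -2.29 and -2.48 across knockout replicates 1 to 4. The groups did not overlap and their means differed by 1.30, but this came almost wholly from the positive side. The positive mean was 6.49 ± 0.58 and 7.64 ± 0.16, while the negative mean stood at 10.01 ± 0.13 for control and 9.87 ± 0.19 for the other libraries. With Clock alone as the positive arm, the difference was 0.25 and the groups overlapped (-1.40 to -0.84 against -1.34 to -0.47). No p is given for these scores, because they are sums over chosen genes.

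A wider version added Arntl and Nfil3 to the positive side and used Per1, Per2, Per3, Nr1d1, Nr1d2, Dbp, Tef, Hlf, Ciart and Bhlhe41 on the other. The groups then overlapped, from -3.48 to -2.43 in the control libraries and from -3.09 to -1.96 in those labelled knockout. Without Npas2 the wider difference between the means was -0.16, in the opposite direction. Apart from Npas2, the arms thus did not separate the groups in these libraries. Whether the hour of collection differed was not tested, and hour and group cannot be told apart where the labels give no hour.

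**Figure D2:**
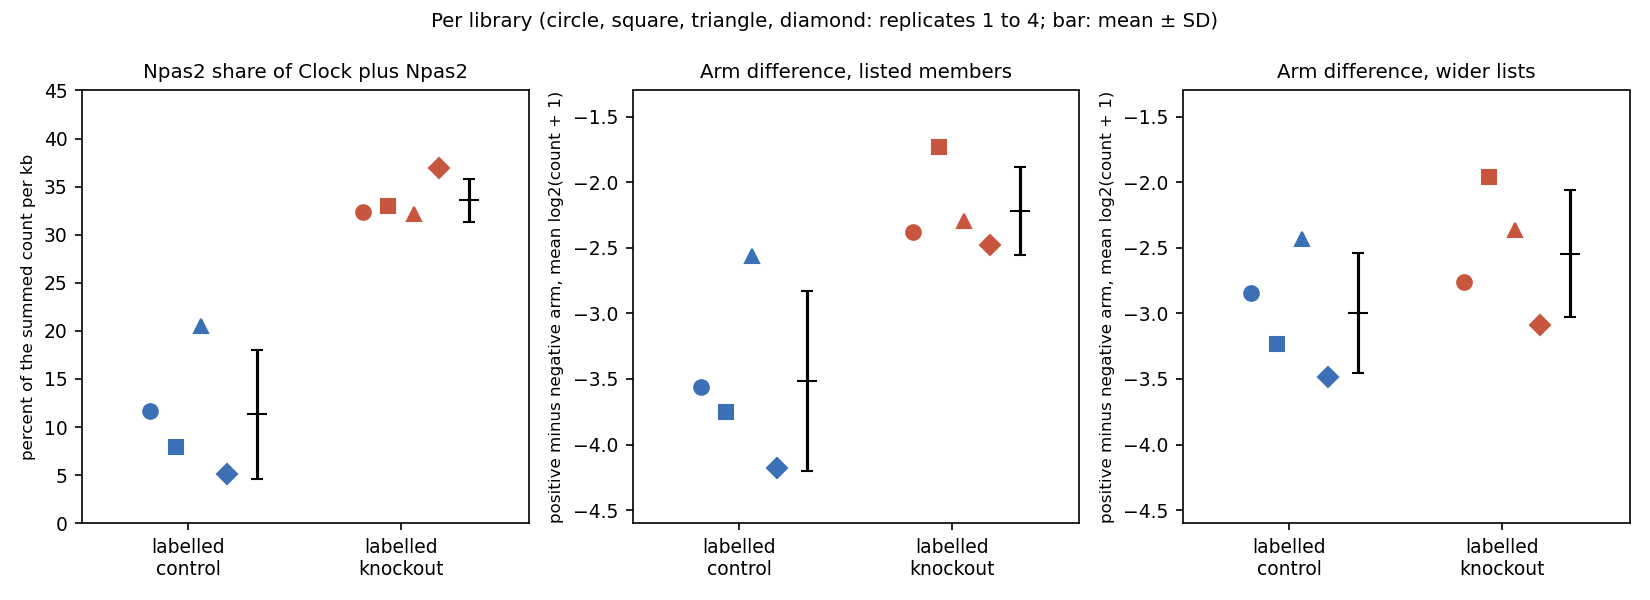
Left, Npas2 as a percentage of the summed level of Clock and Npas2 per kilobase in each library; middle and right, the arm difference (mean log2 count + 1 of the positive genes minus that of the negative genes) for the listed members and for the wider lists, with the mean ± SD. The Npas2 share was 5.08% to 20.5% against 32.1% to 36.9%, while the wider arm difference overlapped between the groups.

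The remaining genes of the pathway were read from lists of 29 genes, of which 27 were tested, and 8 were called, 2 higher and 6 lower, beside 23.2% of all genes called, 11.6% higher and 11.6% lower. Their median log2 difference was -0.17, beside 0.00 over all genes, and 21 of the 27 had a difference below 0, as had 49.9% of all genes. Rorb and Fbxl21 were too low to test. Antisense exons share 33 bases with Arntl, 193 with Tef, 82 with Rora, 118 with Bhlhe40 and 1280 with Bhlhe41, and their reads cannot be told apart from those of the gene if strand was not used.

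Of the D-box factors, Tef, a relative of Dbp, fell from 6166 ± 317 to 4851 ± 279, with each library labelled knockout (4629 to 5249) below each control library (5916 to 6608). On the log2 scale this is -0.35 (SE 0.08, limma adjusted p = 0.0158), and the call was lost without control replicate 2 (0.0508). It was also lost under quantile normalisation, at -0.05 (limma adjusted p = 0.645), and under the scaling without abundant genes, at -0.20 (limma adjusted p = 0.0870). Hlf was not called (-0.12, limma adjusted p = 0.709; 0.03 under that same scaling). Nfil3, the factor that opposes them and is repressed by the REV-ERB receptors, fell from 202 ± 24.2 to 127 ± 32.0 without overlap. On the log2 scale this is -0.69 (SE 0.19, limma adjusted p = 0.0294), but 0.35 and not called with the muscle score as a covariate. Dropping a library cost the call in 6 of 8 cases, all but control replicate 4 and knockout replicate 3 (-0.83 to -0.53). The scaling without abundant genes also lost it, at -0.55 (limma adjusted p = 0.0678).

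Rora, a ROR receptor that opposes the REV-ERB proteins on Arntl, was not called (-0.16, limma adjusted p = 0.363).

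None of the 5 further repressors was called by limma, and none had an unadjusted p under 0.05. Ciart, an E-box target that represses CLOCK and BMAL1, was at 181 ± 33.4 and 176 ± 67.9, with a log2 difference of -0.09 that was 0.06 under the scaling without abundant genes. Bhlhe40 and Bhlhe41, which bind the same E-boxes, differed by -0.03 and -0.19, and that of Bhlhe40 was 0.19 under quantile normalisation. Timeless and Tipin differed by 0.20 and 0.04.

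Of 7 tested genes that act on the stability of clock proteins, 3 were called lower, beside 11.6% of all genes, and none higher. Usp2, a deubiquitinase whose transcript is itself rhythmic, fell from 2981 ± 427 to 1929 ± 389 without overlap (log2 difference -0.64, standard error 0.16, limma adjusted p = 0.0192). That call was lost without control replicate 2 (limma adjusted p = 0.0572) or control replicate 4 (0.0526), and under quantile normalisation (0.0664). Fbxw11, an F-box protein that marks PER for breakdown, and Gsk3b, a kinase of several clock proteins, differed by -0.30 (limma adjusted p = 0.0238) and -0.34 (limma adjusted p = 0.0348), and each lost its call under quantile normalisation (-0.23 and -0.25) and under the scaling without abundant genes (-0.15 and -0.19). Fbxw11 also lost it without control replicates 2 or 4 or knockout replicate 4 (-0.33 to -0.26), and Gsk3b without control replicates 2 or 4 or knockout replicates 1, 3 or 4 (-0.41 to -0.27). The casein kinases Csnk1d (-0.04), Csnk1e (-0.15) and Csnk1a1 (-0.20), which phosphorylate PER, were not called, nor was Btrc (-0.17), an F-box protein.

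Among 9 other rhythmic outputs, Tspan4, a tetraspanin, rose by 0.67 (limma adjusted p = 0.0103; -0.06 and not called with the muscle score) and Klf9 fell by 0.37 (limma adjusted p = 0.0385). Klf9 kept that call without control replicate 1 or knockout replicate 4 and lost it without any other library (-0.45 to -0.30). It was also lost under quantile normalisation, at -0.21 (limma adjusted p = 0.192), and under the scaling without abundant genes, at -0.22 (limma adjusted p = 0.145). Nampt, the NAD salvage enzyme, had a difference of -0.34 that missed the threshold (limma adjusted p = 0.0581), and Wee1, a cell cycle kinase under E-box control, differed by 0.07. Lonrf3 (-0.42), Coq10b (0.10), Por (-0.12), Tars (-0.26) and Tsc22d3 (-0.40) were not called either.

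**Figure D3:**
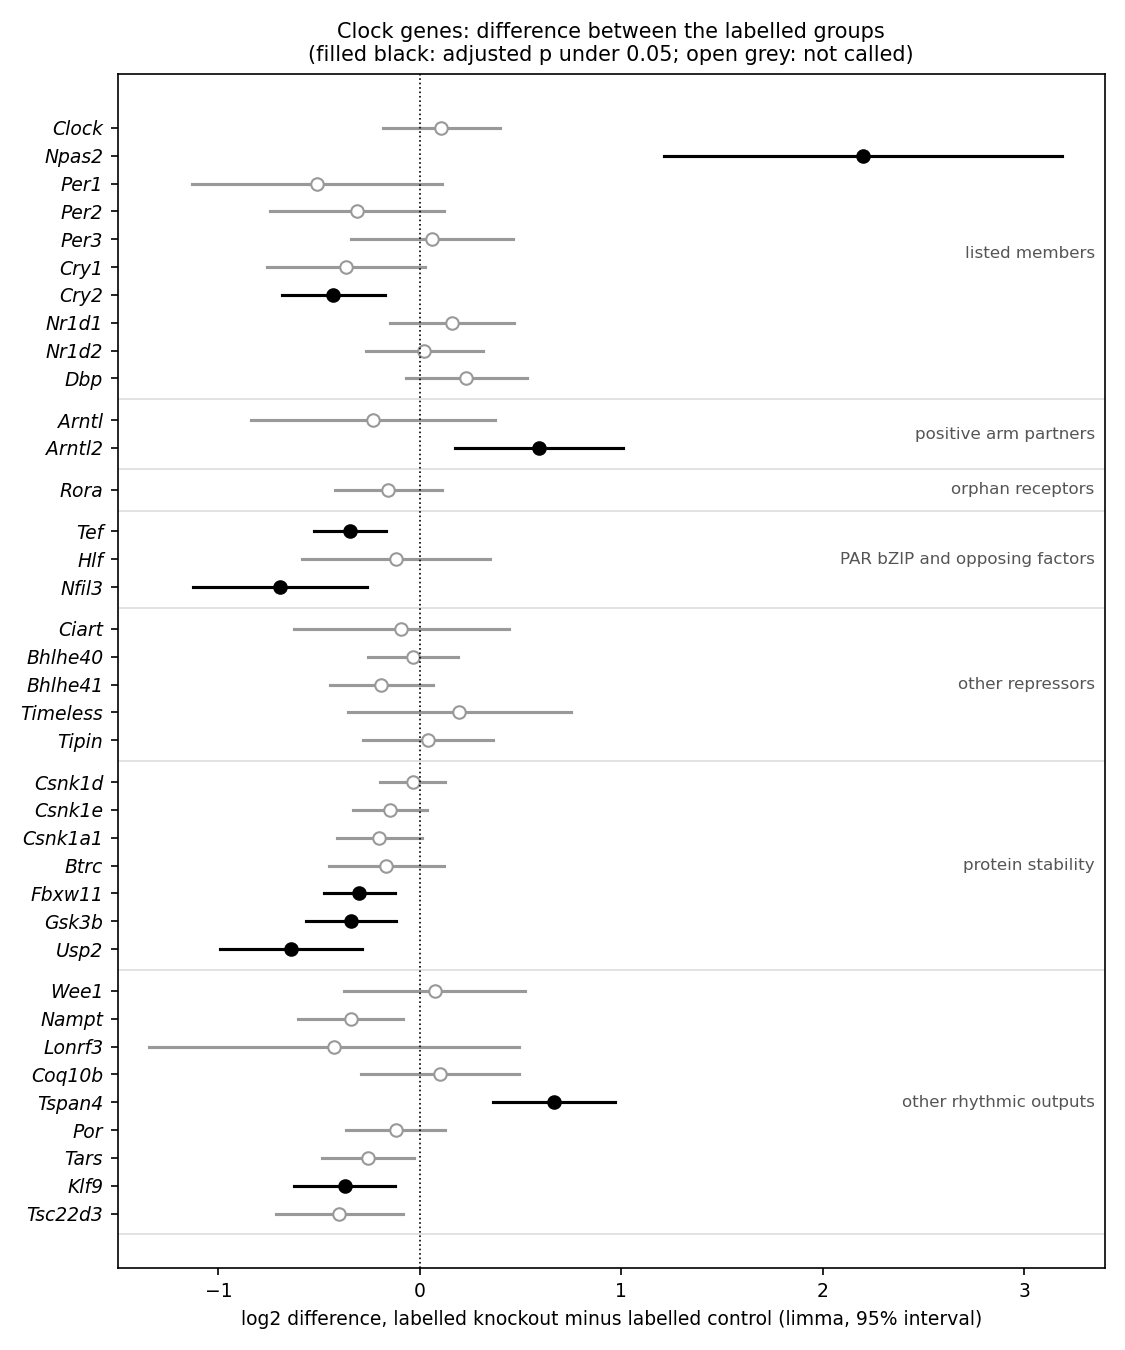
Log2 difference, knockout label minus control label (x axis, limma estimate with its 95% interval) for the 10 members and the 27 other tested clock genes (y axis, by list). Filled black points passed an adjusted p of 0.05: Npas2 at 2.20 lies far to the right, and most other called genes lie between -0.69 and -0.30.

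Inside the groups, libraries differed from each other in clock genes, as the plot of deviations shows; the examples were chosen after their values were seen, and no test was made. Knockout replicate 2 was the highest of the 8 libraries for Clock, Npas2 and Arntl, and the lowest for Per2, Per3, Tef and Ciart. Knockout replicate 4 was the highest for Dbp and Ciart and the lowest for Arntl, Nfil3 and Cry1. As deviations from their own group mean, Arntl stood at 0.73 and Per2 at -0.61 in knockout replicate 2, and Arntl at -0.56 and Per1 at 0.70 in knockout replicate 4. In the control group, replicate 2 was high in Per1 (0.60), Per3 (0.46) and Ciart (0.35), and replicate 3 low in the same genes (-0.53, -0.25 and -0.23). The arms did not move apart in every library. In knockout replicate 3 Arntl (0.28) and Nfil3 (0.41) were high together with Nr1d1 (0.31) and Dbp (0.14), in knockout replicate 1 Arntl (-0.45) and Nr1d1 (-0.37) were both low, and control replicate 2 was low in Nr1d1 (-0.13). Whether these libraries differed in the hour of collection was not tested.

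**Figure D4:**
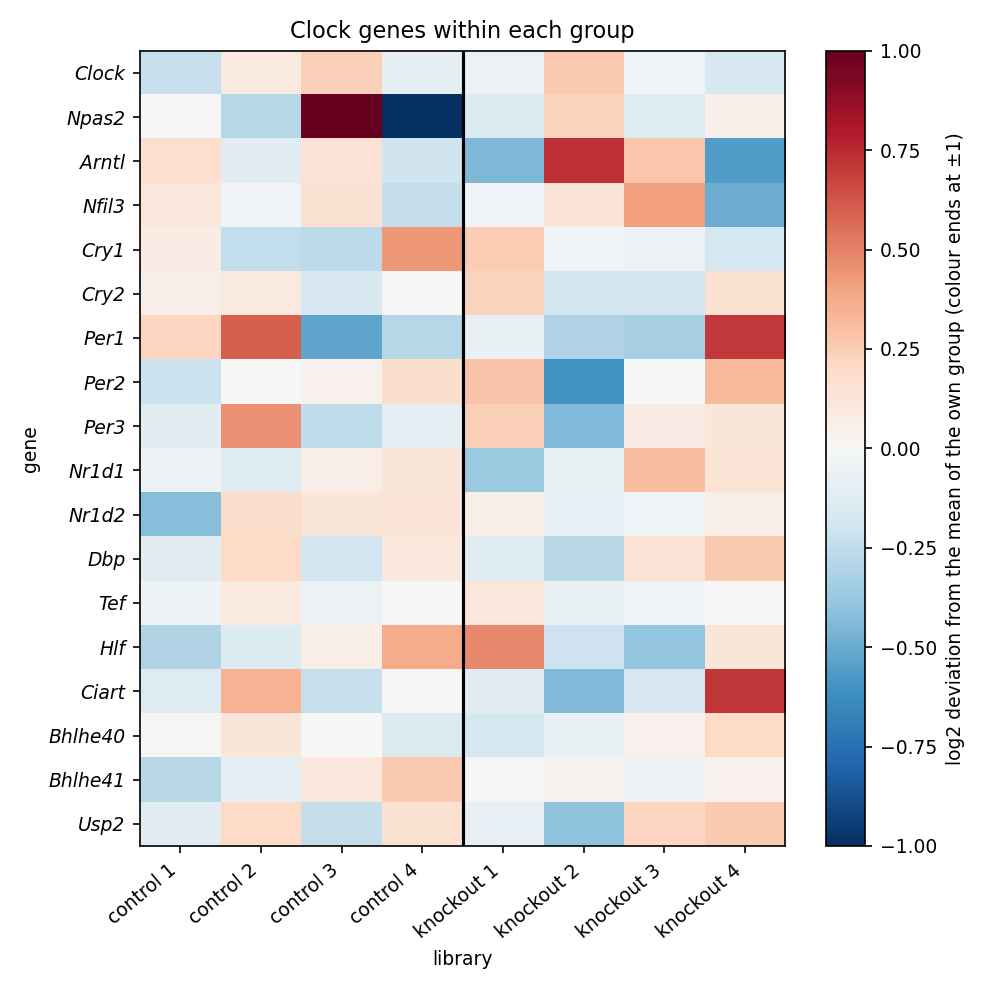
Deviation of log2(count + 1) from the mean of the library's own group (colour, red above and blue below, ending at ±1) for 18 clock genes (y axis) in the 8 libraries (x axis). In knockout replicate 2 the positive-arm genes are red and Per2, Per3 and Ciart blue, and in knockout replicate 4 Arntl and Nfil3 are blue and Per1 and Ciart red.

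These deviations also ranked the genes by likeness to Dbp, as a description over 8 libraries. Of 11645 genes with a mean of at least 50, Usp2 came first, with a Pearson r of 0.98 (Spearman 0.95), and r was 0.98 again without knockout replicates 2 and 4, the libraries farthest from the median. The next were Eif2b4, Slco5a1, Ppp2r5b and Ncoa6 (r 0.96 to 0.93), and the least alike were Tigd4, Mettl14, Srp54b, Mbtps2 and Commd7 (r -0.97 to -0.92). Of the clock genes Ciart stood 101st (r = 0.84), Per3 437th (0.70), Per1 733rd (0.63) and Per2 911th (0.59). Also between Ciart and Per2 stood Wee1 at 184th (0.79), Klf9 at 245th (0.77), Csnk1e at 367th (0.72) and Bhlhe40 at 863rd (0.60). Nr1d1 stood 1796th (0.44), Cry2 2419th (0.36), Nr1d2 2491st (0.35) and Cry1 6793rd (-0.12). Arntl2 stood 384th (0.71; 0.36 without those libraries). Tef (0.33), Bhlhe41 (0.05) and Hlf (0.008) were less like Dbp than Ciart was. An r below 0 was found for Arntl (-0.59), Npas2 (-0.51), Clock (-0.50) and Nfil3 (-0.46). It was not confined to the positive arm: Tars (-0.72), Fbxw11 (-0.41), Por (-0.37), Tspan4 (-0.29), Rora (-0.21) and Timeless (-0.03) were also below 0. The values of Arntl, Clock and Nfil3 rested on 2 libraries. Without knockout replicates 2 and 4 their r was 0.03, -0.09 and -0.07, while that of Npas2 was -0.67, of Tspan4 -0.89 and of Ciart 0.69. Per2 rested on them as well (r = -0.04 without them), and Per1 and Per3 were at 0.40 and 0.58.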

How the data were processed

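Mouse knee joint RNA was measured in 8 libraries by poly-A sequencing, from about 400 ng of RNA each. The deposited values are a signal per gene and library, gene counts divided by a size factor. Per the submitters' processing notes and the series' design text, the authors aligned reads to mm10 with HISAT2, counted them with featureCounts and used DESeq2 for normalisation. Versions, the annotation and the strand setting are not given in the sources used here. In each column 100% of values were whole multiples (within 0.01) of the smallest positive value, which gave whole reads. In control replicate 2 and knockout replicate 1 that step was 1.01 and 0.997, too near 1 to be telling by itself. All value columns were mapped to samples by their library names.

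A gene entered the test when 4 or more libraries had a value of 10 or more. With a pseudocount of 1, log2 values were fitted with limma 3.58.1 (group term only, intensity trend), with Benjamini-Hochberg adjustment over all 14949 genes. Single genes were also compared by exact two-sided permutation of the libraries. edgeR 4.0.16 and DESeq2 1.42.0 on whole reads, other scalings, pseudocounts and filters, a muscle covariate, a replicate term and leaving out each library were alternatives. The fits were tested on simulated data. Coordinates, exon lengths and overlaps are from GENCODE M21 (same build as mm10), which matched 99.2% of rows, and promoters from RefSeq (GRCm38.p6). Intervals are at 95%. Pairs of libraries within a group differed by more than counting error (chi-square per degree of freedom 23.5 to 59.7).

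The members and lists were chosen with earlier results of these data known. The text names all 10 members, every called gene of the other clock lists, and Arntl, Tef, Hlf, Nfil3, Ciart, Bhlhe40, Bhlhe41 and Rora whatever their result. A few genes of the planned lists are not reported here, and enter none of the counts of listed genes. Other listed genes that were not called are given by their difference, chosen after their values were seen. It also names the 5 genes most and least like Dbp and Npas2 in their deviations from group means, among genes with a mean of at least 50. The marker lists were skeletal muscle, fibroblast, cartilage, macrophage, bone and osteoclast, red cell, neutrophil, fat, endothelium, glucocorticoid response and immediate early genes.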

Additional observations from a re-analysis of the deposited data

Results flagged for a closer look

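Nr1d2 in control replicate 1 stood apart from the rest of its group, at 1457 normalised reads beside 2124 to 2211 in the other control libraries. Its gap to the nearest library took 0.904 of the group's range on the log2 scale, above the 95% critical value of Dixon for groups of 4. It was 1 of 50 groups of 4 values examined, and chance marks about 1 in 20.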

How the results depend on the processing

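The count of genes called was 3461, and 2018 with a replicate block and 0 with the muscle score (525 at an unadjusted p under 0.05). It lay between 1751 and 3841 when a library was left out, and was 1887 without control replicate 2, 2194 without control replicate 4 and 1751 without knockout replicate 4. Scaling without abundant genes gave 2708 higher and 784 lower, against 1732 and 1729. Of the members, 2 were called, against 1 under quantile normalisation, 1 under the scaling without abundant genes, 0 with the muscle score and 1 to 2 without a library. The call for Cry2 was the one lost in the settings that gave 1. The arm difference kept its direction, from 1.05 to 1.33 across the 3 scalings and 2 pseudocounts tried and from 1.07 to 1.61 without a library. With the muscle score the log2 differences of Arntl (0.49), Nfil3 (0.35), Rora (0.053) and Tspan4 (-0.058) changed sign. The scaling without abundant genes turned Hlf (0.029), Ciart (0.055) and Bhlhe40 (0.12), and quantile normalisation Bhlhe40 (0.19). Leaving out a library turned Nr1d2 (-0.12 to 0.081), Per3 (-0.023 to 0.21), Hlf (-0.28 to 0.012), Ciart (-0.33 to 0.054) and Bhlhe40 (-0.10 to 0.024), none of them called. The cause was not tested. Deviations of same-numbered libraries correlated at -0.23 to 0.21, and 1 of 4 pairs passed 0.1. Those of libraries with other numbers correlated at -0.16 to 0.27, so the replicate numbers showed no pairing. Deviations sum to 0 within each group, so this check cannot exclude a pairing or a shared batch. The block took the calls of Tef, Arntl2, Fbxw11, Gsk3b and Klf9 and of no member. Of 24 named genes 7 kept their direction and their side of the threshold in all alternatives. Npas2, with 7 to 50 reads in control libraries, is the member with the fewest reads behind it (1.71 to 2.34 over scalings and pseudocounts).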

Other observations

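Usp2 and Dbp, which deviated together within the groups, differed between them. The log2 ratio of Usp2 to Dbp was 0.45, 0.46, 0.41 and 0.51 across control replicates 1 to 4, and -0.37, -0.53, -0.34 and -0.41 across knockout replicates 1 to 4. The means were 0.46 ± 0.04 and -0.41 ± 0.09 (SD, n = 4), a difference of -0.87, lower in 4 of 4 libraries labelled knockout. It lay between -0.90 and -0.83 without any 1 library, and at -0.87 with both other pseudocounts. A ratio within a library does not depend on scaling, and it shows unequal change only. This pair was chosen after the values were seen, so no p is given. Usp2 was the gene most like Dbp of 11645, a choice that keeps the spread within groups small. It was also already called lower by limma (log2 difference -0.64), while Dbp was not called (0.23). Muscle markers fell over the same libraries, and their part in the ratio was not tested.

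By deviations from the group means, the genes most like Npas2 were C1qtnf6 (r = 0.98), Ripk3 (0.98), a row whose name is a number, Dchs1 (0.96), which encodes a large protocadherin, and Fmod (0.96), the collagen-binding proteoglycan fibromodulin. The least alike were Gnl3l (-0.98), Rpl3-ps1 (-0.97), Ybx3 (-0.96), Herc1 (-0.95) and Hmgb3 (-0.95). Among clock genes Tspan4 stood highest, 351st of 11645 (r = 0.75), and Clock stood 1270th (0.55). Without control replicates 3 and 4, r was 0.61 for Tspan4 and 0.20 for Clock. These are descriptions over 8 libraries in which control replicate 3 held the highest value of Npas2 in its group.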
